A study of Mus musculus with 8 samples.

Results

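The Fc receptors described here are the 6 mouse genes Fcgr1, Fcgr2b, Fcgr3, Fcgr4, Fcer1g and Fcgrt, taken by name out of 26930 genes counted by RNA sequencing of poly(A) RNA. All 6 had counts in every library and all 6 were tested. Their mRNA was measured in senescent-like myeloid-derived suppressor cells (MDSCs), a mixed immature myeloid population that limits T cell responses. One group was given Romidepsin, an inhibitor of class I histone deacetylases, at 0.5 µM for 6 h (n = 4 libraries), and the other was left untreated (n = 4). Both groups share everything else that the labels give: bone marrow of C57BL/6 mice, culture with GM-CSF and IL-6 at 40 ng/ml each, and, on day 4, conditioned medium of the prostate tumour line TRAMP-C1. The age of the mice is not given, no allele is named, and no label says whether marrows were pooled or came from separate animals or cultures. The p-values therefore speak only of the variation among these libraries, and that variation may be technical.

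Fc receptors bind the constant part of antibodies and so connect immunoglobulin to the phagocyte that carries them. Fcgr1 encodes the high-affinity IgG receptor CD64, Fcgr3 and Fcgr4 encode activating receptors of lower affinity, and Fcer1g encodes the common gamma chain, which these 3 receptors need for surface expression and which signals through an immunoreceptor tyrosine-based activation motif (ITAM) that recruits the kinase Syk. Fcgr2b encodes the inhibitory receptor, whose inhibitory motif (ITIM) recruits the lipid phosphatase SHIP1, so that the balance of activating and inhibitory receptors sets how strongly a myeloid cell responds to immune complexes. Fcgrt encodes the heavy chain of the neonatal Fc receptor, which pairs with beta-2 microglobulin inside endosomes and returns IgG to the cell surface.

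Total counts per library ranged from 12996892 to 23176949. Levels are CPM values, which are read counts scaled to library size and composition (TMM, edgeR's default scaling) and given in the order of replicates 1 to 4. Romidepsin replicate 3 stood apart from its group. Its log2 CPM profile had a mean correlation across genes of 0.91 with the other Romidepsin libraries and of 0.934 with the untreated libraries. The linker histone gene H1f0, chosen after its values were seen, had 1776, 1959, 717 and 1354 CPM in Romidepsin libraries, against 115, 159, 133 and 107 CPM in untreated libraries, so replicate 3 was above every untreated library and lowest of its group. Hist1h1c, another linker histone gene chosen the same way, had 1487, 1963, 1200 and 2216 CPM in Romidepsin libraries. Its untreated libraries had 29.6 to 52.4 CPM. Replicate 3 was again lowest of its group, but close to replicate 1. The log2 fold change of each of the 6 genes is given with this library and, where leaving it out changed the call, without it. Myeloid identity was checked on 14 markers. Lyz2, the lysozyme gene, had 12170 to 26100 CPM in Romidepsin cells and 27310 to 37000 CPM in untreated cells, and Itgam, the CD11b gene, had 168 to 712 CPM in Romidepsin cells and 407 to 902 CPM in untreated cells. Most exonic bases of Itgam, 3450 of 5024, also belong to the predicted gene Gm49368 on the same strand, so its counts are uncertain. Ly6g, the granulocyte marker, lay at 1.38 to 11.5 CPM in Romidepsin cells and 4.69 to 19.6 CPM in untreated cells.

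Of the 6 genes, 4 lie on chromosome 1 of GRCm38 in the order Fcgr2b (chr1:170958617-170976547, minus strand), Fcgr4 (chr1:171018920-171029761, plus strand), Fcgr3 (chr1:171051174-171064935, minus strand) and Fcer1g (chr1:171229572-171234365, minus strand). Fcgr1 lies at chr3:96282909-96293969 and Fcgrt at chr7:45092990-45103851, both on the minus strand. Fcgr2b and Fcgr3 are near copies of each other in the part that encodes the IgG-binding domains. Their coding sequences were 96.5% identical over 509 aligned bases, while the other pairs of Fcgr genes were 72.3% to 78.7% identical where they aligned. The 78.7% is of Fcgr1 with Fcgr4 and covers only 75 aligned bases, while the rest of these pairs aligned over 242 to 642 bases. The longest stretch that the pair share is shown because a read lying wholly inside it matches both genes. Capitals mark the 129 identical coding bases, which run over exons 3 and 4 of both genes, and lower case marks 12 bases on either side, from GENCODE transcripts on GRCm38.
Fcgr2b: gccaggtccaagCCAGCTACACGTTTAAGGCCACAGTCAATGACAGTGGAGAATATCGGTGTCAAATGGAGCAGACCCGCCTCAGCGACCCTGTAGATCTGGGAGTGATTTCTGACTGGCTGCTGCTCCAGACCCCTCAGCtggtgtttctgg
Fcgr3: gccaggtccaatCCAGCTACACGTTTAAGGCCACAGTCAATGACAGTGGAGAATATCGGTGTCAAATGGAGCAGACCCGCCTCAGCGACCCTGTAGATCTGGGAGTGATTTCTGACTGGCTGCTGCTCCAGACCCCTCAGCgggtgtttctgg
In exact windows of 75 bases over all annotated transcripts, 94 of the 1733 windows of Fcgr3 (5.42%) and 94 of the 5768 windows of Fcgr2b (1.63%) were common to both. Counting every other gene, 156 windows of Fcgr2b (2.70%) occurred elsewhere, among them 30 in Gm4117 and 18 in Pou2f2. No window of Fcgr1, Fcgr4, Fcer1g or Fcgrt occurred in another gene. Fcgr2b also shares 155 exonic bases with the predicted gene Gm38204 on the opposite strand, and the strand setting of the counting is not given in the sources used here.

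The sequence just before an annotated transcription start is shown for Fcgr1, Fcgr3 and Fcgr4, the activating receptors whose mRNA is described below, because it holds short words known from myeloid and cytokine-responsive promoters. In the RefSeq windows on GRCm38.p6, from 250 bases before to 50 after each annotated start, both strands were searched for 3 words: TTCNNNGAA, a cytokine-response word called GAS; GAAA with any 2 bases and GAAA after it, an interferon-response word; and GAGGAA, the core bound by the myeloid factor PU.1, which reads TTCCTC on the other strand. Capitals mark the matches, and no matches overlap. The stretches run 5′ to 3′ on the strand of the gene from 120 bases before the start, to the base before it for Fcgr1 (chr3:96293970-96294089) and Fcgr3 (chr1:171059404-171059523), and to 8 bases before it for Fcgr4 (chr1:171018806-171018918).
Fcgr1: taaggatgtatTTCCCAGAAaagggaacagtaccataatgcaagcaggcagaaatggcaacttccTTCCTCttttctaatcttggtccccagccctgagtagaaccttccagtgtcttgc
Fcgr3: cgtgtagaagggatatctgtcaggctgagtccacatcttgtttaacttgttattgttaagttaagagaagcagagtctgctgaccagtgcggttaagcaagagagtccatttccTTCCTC
Fcgr4: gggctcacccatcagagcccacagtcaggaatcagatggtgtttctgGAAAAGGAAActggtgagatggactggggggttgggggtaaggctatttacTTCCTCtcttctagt
The word TTCCCAGAA in Fcgr1 is the GAS match and GAAAAGGAAA in Fcgr4 is the interferon-response match, and all 3 stretches hold the PU.1 core. The printed Fcgr3 stretch lies inside the annotated span of that gene. Window 2 of Fcgr3, from another RefSeq start, also held the PU.1 core, at -15 from that start. None of the 3 words occurred in the windows of Fcgr2b, Fcer1g or Fcgrt. Among all 32851 windows, 28.3% held the PU.1 core, 8.30% the GAS word and 3.44% the interferon-response word. A match is a description of the letters and not evidence of binding.

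All 6 Fc receptor genes had a negative estimated log2 fold change of Romidepsin over untreated cells, and Fcgr3 alone passed the test in the unpaired comparison of 4 against 4 libraries (edgeR quasi-likelihood F test, adjusted p under 0.05 over 12852 genes). The background in that comparison was 16.2% of all tested genes lower and 20.3% higher, so 1 lower gene of 6 is close to the background. The median log2 fold change of the 6 genes was -1.22, beside 0.01 over all tested genes. These values are per unit of RNA of the whole culture, in which fewer cells of a type and less RNA per cell cannot be told apart.

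Fcgr3, the low-affinity activating receptor gene, had 85.2, 81.4, 374 and 243 CPM in Romidepsin cells, against 572, 598, 492 and 442 CPM in untreated cells. Every Romidepsin library was below every untreated library, as in 16.5% of all tested genes, and Romidepsin replicates 1 and 2 were far below replicates 3 and 4. The mean was 196 ± 141 CPM in Romidepsin cells and 526 ± 71.7 CPM in untreated cells (SD, n = 4 each). Fcgr3 was lower by this comparison, with a log2 fold change of -1.42 ± 0.48 (SE) and an edgeR adjusted p of 0.0430. The call rests on all libraries being present: without any 1 library other than Romidepsin replicate 3 the adjusted p lay between 0.0649 and 0.0898, with log2 fold changes of -1.54 to -1.16. Without Romidepsin replicate 3 the log2 fold change was -1.97 and the call remained. Scaling to 20 housekeeping genes gave -0.82 with an edgeR adjusted p of 0.0891.

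Fcgr1, the CD64 gene, had 16.4, 47.8, 763 and 202 CPM in Romidepsin cells, against 423, 1229, 1843 and 915 CPM in untreated cells. Romidepsin replicates 1, 2 and 4 were below every untreated library, and replicate 3 was above untreated replicate 1. In 25.0% of all tested genes these 3 libraries were below every untreated library. The mean was 257 ± 347 CPM in Romidepsin cells and 1102 ± 595 CPM in untreated cells (SD, n = 4 each). The log2 fold change was the most negative of the 6 genes at -2.10 ± 1.02 (SE), but its SE was also the largest of the 6 and the edgeR adjusted p was 0.129. Without Romidepsin replicate 3 the log2 fold change was -3.67 with an edgeR adjusted p of 0.0108. Even the lowest value, Romidepsin replicate 1, rested on 286 reads, so counting error is small beside the spread between libraries.

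Fcgr4, the gene of the intermediate-affinity receptor that binds mouse IgG2a and IgG2b, had 15.4, 33.2, 236 and 100.2 CPM in Romidepsin cells, against 124, 384, 457 and 227 CPM in untreated cells. As for Fcgr1, Romidepsin replicates 1, 2 and 4 were below every untreated library, and replicate 3 lay inside the untreated range. The mean was 96.2 CPM in Romidepsin cells, with an SD slightly above the mean, and 298 ± 151 CPM in untreated cells (SD, n = 4 each). This gave a log2 fold change of -1.63 ± 0.77 (SE) with an edgeR adjusted p of 0.1198. Without Romidepsin replicate 3 it was -2.62 with an edgeR adjusted p of 0.0149.

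Fcgr2b, the inhibitory receptor gene, had 94.1, 59.5, 396 and 222 CPM in Romidepsin cells, against 536, 399.6, 342 and 284 CPM in untreated cells. Romidepsin replicates 1, 2 and 4 were below every untreated library, while replicate 3 exceeded untreated replicates 3 and 4. The mean was 193 ± 152 CPM in Romidepsin cells and 390.4 ± 108 CPM in untreated cells (SD, n = 4 each). Its log2 fold change was -1.02 ± 0.53 (SE) with an edgeR adjusted p of 0.155. Without Romidepsin replicate 3 it was -1.66 with an edgeR adjusted p of 0.0155.

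Fcer1g, the shared signalling chain, had 323, 287, 848 and 581 CPM in Romidepsin cells, against 785, 942, 1188 and 566 CPM in untreated cells. Romidepsin replicates 1 and 2 were below every untreated library, and replicates 3 and 4 overlapped the untreated range. The mean was 509.7 ± 261 CPM in Romidepsin cells and 870.3 ± 262 CPM in untreated cells (SD, n = 4 each). The log2 fold change was -0.77 ± 0.39 (SE) with an edgeR adjusted p of 0.140, and without Romidepsin replicate 3 it was -1.16 with an edgeR adjusted p of 0.0264.

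Fcgrt, the neonatal Fc receptor gene, had 41.9, 66.4, 68.2 and 53.0 CPM in Romidepsin cells, against 59.4, 94.1, 86.8 and 62.3 CPM in untreated cells. The groups overlapped and Romidepsin replicate 3 did not stand apart. The mean was 57.4 ± 12.4 CPM in Romidepsin cells and 75.6 ± 17.4 CPM in untreated cells (SD, n = 4 each). Its log2 fold change was -0.40 ± 0.22 (SE) with an edgeR adjusted p of 0.173, and Fcgrt passed under none of the alternatives run. With housekeeping scaling, which moved the median of all genes to 0.73, its log2 fold change was 0.32 with an edgeR adjusted p of 0.300, while the other 5 genes stayed below 0.

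**Figure D1:**
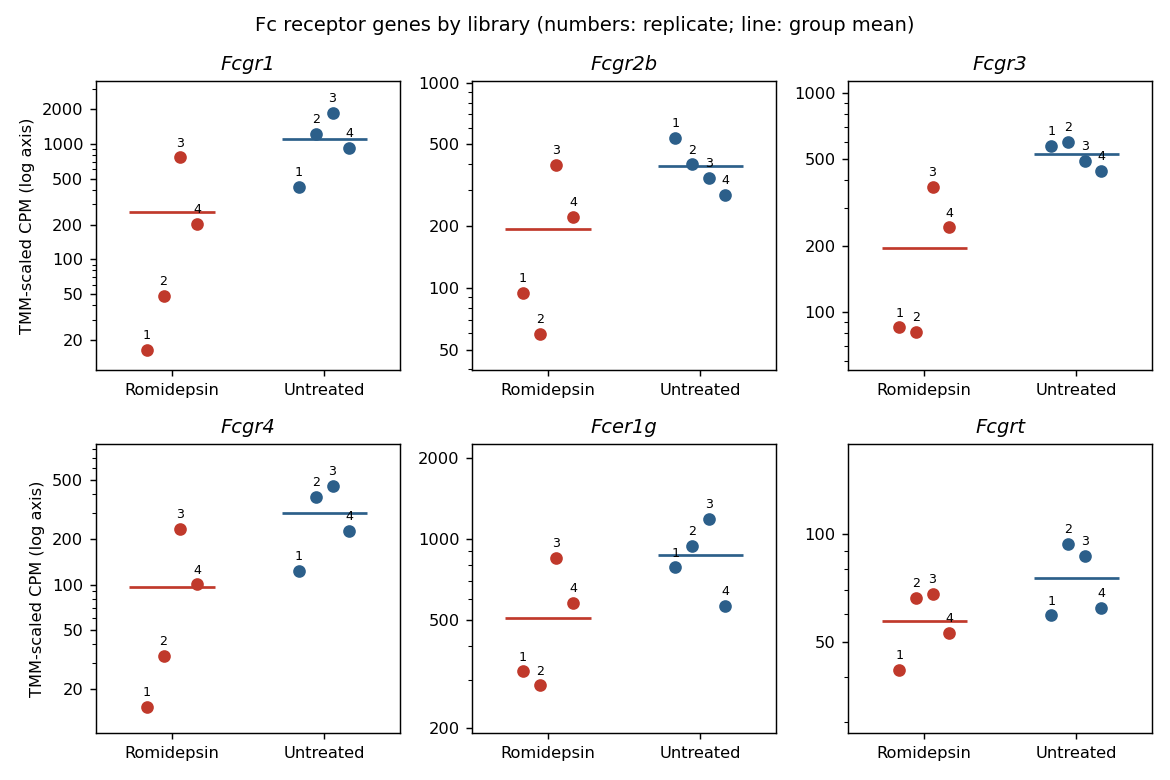
TMM-scaled CPM (log axis) of the 6 Fc receptor genes in each library, Romidepsin left and untreated right, with replicate numbers and the group mean as a line (n = 4 each). Fcgr3 is the gene without overlap between groups, and Romidepsin replicate 3 is the highest Romidepsin library for every gene.

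The groups share the replicate numbers 1 to 4, and the deviations of same-numbered libraries were correlated, so each Romidepsin library was also set against the untreated library of its number. Fcgr1 was lower in all 4 pairs, by log2 differences of -4.69, -4.68, -1.27 and -2.18 for numbers 1 to 4. Fcgr3 was lower in all 4 pairs too, by -2.75, -2.88, -0.39 and -0.86. Fcgr4 was lower in all 4 pairs, by -3.01, -3.53, -0.96 and -1.18. Pairs 1 and 2 thus showed the larger differences and pairs 3 and 4 the smaller ones for each of the activating receptors. Fcgr2b differed by -2.51, -2.75, 0.21 and -0.35, so pair 3 went the other way. Fcer1g differed by -1.28, -1.72, -0.49 and 0.04, with pair 4 near 0. Fcgrt differed by -0.50, -0.50, -0.35 and -0.23, lower in all 4 pairs and by amounts close to each other.

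With the replicate number as a block, 3 of the 6 genes were lower, beside 20.8% of all tested genes lower and 21.2% higher in the same fit. Fcgr1 had a log2 fold change of -3.21 with an edgeR adjusted p of 0.00935, Fcgr4 -2.16 with 0.0110 and Fcgr3 -1.72 with 0.0229. Fcgr2b (-1.35, edgeR adjusted p = 0.0850), Fcer1g (-0.86, edgeR adjusted p = 0.0605) and Fcgrt (-0.40, edgeR adjusted p = 0.0793) did not pass. Without Romidepsin replicate 3, 5 of the 6 genes were lower in the unpaired fit, beside 23.4% of all tested genes lower and 24.8% higher. That library was the highest of its group for all 6 genes, so its removal favours a lower call. Without any 1 other library 0 of the 6 were lower, as with no count filter. Over all tested genes, leaving out 1 library gave 1187 to 3077 lower genes. Without both libraries of number 3, 4 of the 6 were lower, beside 19.2% of all tested genes lower and 20.6% higher, Fcer1g and Fcgrt being the ones that did not pass. With housekeeping scaling 0 of the 6 were lower, beside 4.95% of all tested genes lower and 46.7% higher. With scaling by library size alone 1 was lower, Fcgr3, beside 10.6% of all tested genes lower and 30.2% higher. The DESeq2 Wald test called 2 lower, Fcgr3 and Fcgr4, beside 21.8% of all tested genes lower and 22.0% higher. None of the 6 was higher in any of the fits run.

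**Figure D2:**
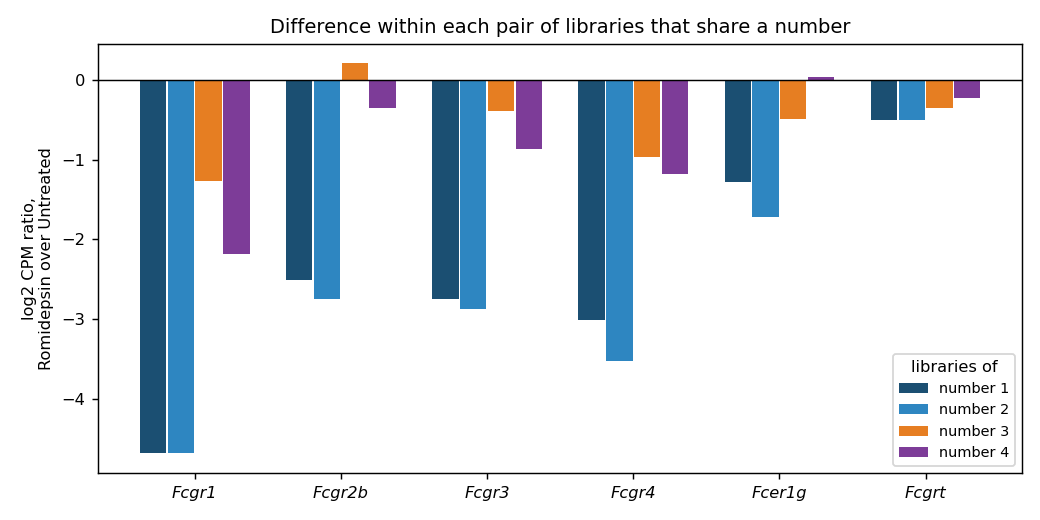
Log2 difference of Romidepsin minus untreated CPM within each numbered pair for the 6 Fc receptor genes, 1 bar per pair. Fcgr1, Fcgr3, Fcgr4 and Fcgrt lie below 0 in all 4 pairs, and pairs 1 and 2 lie lowest for every gene.

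**Figure D3:**
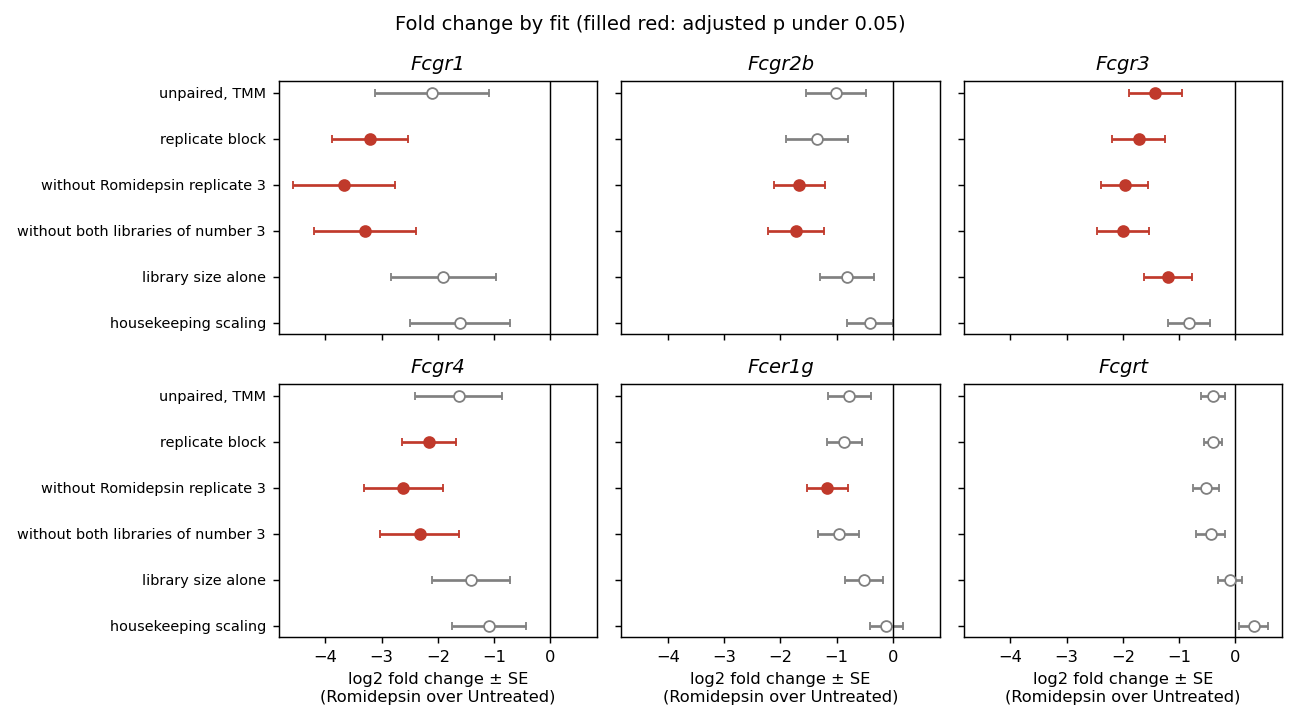
Log2 fold change of Romidepsin over untreated cells with its standard error for each Fc receptor gene by edgeR fit, filled where the adjusted p was under 0.05. The fits are unpaired, with the replicate block, without Romidepsin replicate 3, without both libraries of number 3, by library size alone and by housekeeping scaling. Leaving out Romidepsin replicate 3 or adding the replicate block moved Fcgr1 and Fcgr4 past the threshold, and housekeeping scaling moved every gene towards 0 or above it.

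The balance of activating to inhibitory receptor was measured inside each library as a log2 ratio of counts, which needs no scaling between libraries. Fcgr1 over Fcgr2b was -2.52, -0.31, 0.95 and -0.14 in Romidepsin cells, against -0.34, 1.62, 2.43 and 1.69 in untreated cells. The means were -0.51 ± 1.45 in Romidepsin cells and 1.35 ± 1.19 in untreated cells (SD, n = 4 each), a difference of -1.86 (exact two-sided permutation test, p = 0.114, adjusted over the 3 ratios 0.171). Fcgr3 over Fcgr2b was -0.14, 0.45, -0.08 and 0.13 in Romidepsin cells, against 0.09, 0.58, 0.52 and 0.64 in untreated cells. The means were 0.09 ± 0.27 in Romidepsin cells and 0.46 ± 0.25 in untreated cells, a difference of -0.37 (exact permutation test, p = 0.0857, adjusted 0.171). Fcgr4 over Fcgr2b was -2.61, -0.84, -0.75 and -1.15 in Romidepsin cells, against -2.11, -0.06, 0.42 and -0.33 in untreated cells. The means were -1.34 ± 0.87 in Romidepsin cells and -0.52 ± 1.11 in untreated cells, a difference of -0.82 (exact permutation test, p = 0.314, adjusted 0.314). Without Romidepsin replicate 3 the differences were -2.34 for Fcgr1, -0.31 for Fcgr3 and -1.01 for Fcgr4 over Fcgr2b. The exact test of 3 against 4 libraries cannot give a p under 0.05, so it decides nothing here. With all libraries none of the 3 ratios passed, where 0.0286 is the smallest p that 4 against 4 samples allow. Each ratio was lower in Romidepsin cells in all 4 numbered pairs, for which the exact test that flips signs within pairs gave its smallest possible p, 0.125.

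Between genes, levels were compared per length, as CPM per kilobase of exon. In Romidepsin cells Fcer1g was highest at 583 ± 299, followed by Fcgr3 at 113 ± 81.1, Fcgr1 at 99.3 ± 134, Fcgr4 at 76.6 ± 79.6, Fcgr2b at 33.3 ± 26.3 and Fcgrt at 27.3 ± 5.88 (CPM per kilobase, SD, n = 4). In untreated cells Fcer1g was also highest at 996 ± 300.2, followed by Fcgr1 at 426 ± 229.7, Fcgr3 at 303 ± 41.3, Fcgr4 at 237 ± 120.1, Fcgr2b at 67.4 ± 18.7 and Fcgrt at 36.0 ± 8.27. Fcgr1, Fcgr3 and Fcgr4 differed from their neighbours among each other by less than the larger SD in both groups. In Romidepsin cells the same held for Fcgr2b beside Fcgr4 and for Fcgrt beside Fcgr2b. The level of Fcgr2b depends on the length used, and with its longest transcript it was 54.4 in Romidepsin cells and 110.2 in untreated cells.

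Of the summed per-length level of the 4 Fcgr genes, Fcgr1 made up 7.55%, 18.1%, 38.4% and 23.2% in Romidepsin cells, against 23.9%, 39.8%, 50.2% and 42.2% in untreated cells. The inhibitory Fcgr2b made up 19.4%, 10.1%, 8.91% and 11.4% in Romidepsin cells, against 13.5%, 5.78%, 4.16% and 5.86% in untreated cells. Fcgr3 made up 58.5%, 45.9%, 28.1% and 41.7% in Romidepsin cells, against 48.2%, 28.8% and 30.4% in untreated replicates 1, 2 and 4 and a lower share than any of these in untreated replicate 3. Fcgr4 made up 14.6%, 25.9%, 24.5% and 23.7% in Romidepsin cells, against 14.4%, 25.6%, 25.7% and 21.5% in untreated cells. Replicate 1 had the lowest Fcgr1 share and the highest Fcgr2b share in both groups, and the ranges of the groups overlapped for all 4 genes. These shares are a description with no test. The summed level was 83.9, 102, 767 and 336 CPM per kilobase in Romidepsin cells, against 684, 1194, 1418 and 838 in untreated cells, with only Romidepsin replicate 3 above the lowest untreated library.

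**Figure D4:**
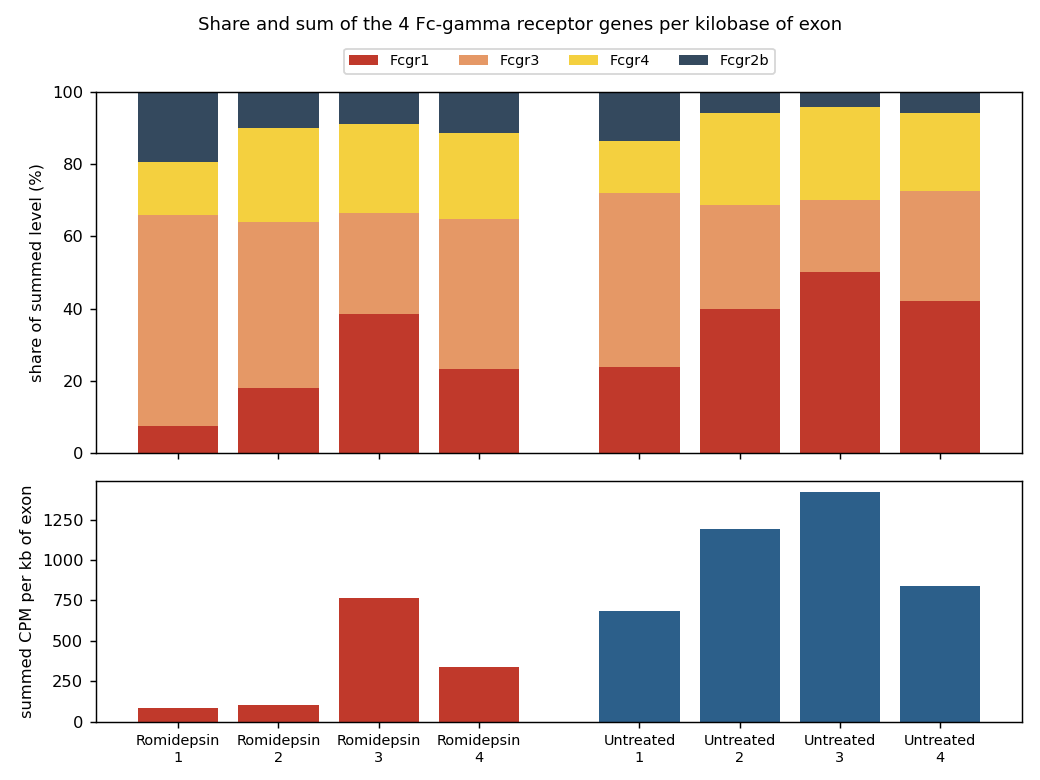
Share of the summed per-length level of Fcgr1, Fcgr2b, Fcgr3 and Fcgr4 in percent for each library, the 4 Romidepsin libraries left of the 4 untreated libraries. The Fcgr1 share ranged from 7.55% to 38.4% in Romidepsin libraries and from 23.9% to 50.2% in untreated libraries.

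Of 13 other receptors for antibodies, 10 were tested, and 5 of these were lower and 0 higher (edgeR, unpaired; median log2 fold change -1.96), beside 16.2% of all tested genes lower. With the block 9 of the 10 were lower, beside 20.8% of all tested genes, and with housekeeping scaling 3, beside 4.95%. When only genes averaging at least 10 CPM were tested, 3 of the list remained and 0 of them were lower. Leaving out Romidepsin replicate 3 gave 6 lower genes, beside 23.4% of all tested genes, and without Romidepsin replicate 4 or any 1 untreated library, 3. The same shares of all tested genes are the background of each list that follows, and over all tested genes leaving out 1 library gave 1187 to 3077 lower genes. Fcmr, the IgM receptor gene, averaged 0.73 CPM in Romidepsin cells and 17.6 CPM in untreated cells (log2 fold change -4.57 ± 0.62 (SE), edgeR adjusted p = 0.00192). Fcrla, an intracellular Fc receptor-like gene of B cells, averaged 0.54 CPM in Romidepsin cells and 6.29 CPM in untreated cells (-3.53 ± 0.55, edgeR adjusted p = 0.00268). Fcrl5, a receptor-like gene of mature B cells, averaged 0.42 CPM in Romidepsin cells and 3.17 CPM in untreated cells (-2.91 ± 0.63, edgeR adjusted p = 0.00916). Fcmr, Fcrla and Fcrl5 passed the count filter through their level in untreated cells. A lower call was therefore the likely one for them, and their direction is weak evidence. The 2 most abundant genes that did not pass unpaired differed by less. Fcrls, a microglial and myeloid marker, averaged 159 CPM in Romidepsin cells and 269 CPM in untreated cells (-0.76, edgeR adjusted p = 0.300, with the block 0.0192), and Trim21, the cytosolic antibody receptor gene, 32.8 CPM in Romidepsin cells and 53.0 CPM in untreated cells (-0.69, edgeR adjusted p = 0.157, with the block 0.0172 and without Romidepsin replicate 3 0.0335).

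Fcmr, Fcrla and Fcrl5 are lymphoid genes, and so is Fcgr2b in part, which B cells carry. B cell markers moved with them: 5 of the 8 tested were lower and 0 higher, beside 16.2% of all tested genes lower. They were 2 when both libraries of number 3, Romidepsin replicate 1 or 4 or untreated replicate 2 were left out, and 3 without untreated replicate 3. Their summed level was 37.9, 455, 98.8 and 109 CPM in Romidepsin libraries, against 309.9, 978, 508 and 288 CPM in untreated libraries, and Igll1 and Vpreb1 were under 1 CPM throughout. The part of B cells in the Fcgr2b values was not tested. Neutrophil markers were lower in 5 of 10 (9 of 10 with the block, beside 20.8% of all tested genes), with summed levels of 432 to 1490 CPM in Romidepsin cells and 2054 to 4701 CPM in untreated cells. Of 9 tested macrophage markers 0 were lower (6 with the block, 3 without Romidepsin replicate 3 and 1 without untreated replicate 1), with summed levels of 1338 to 5468 CPM in Romidepsin cells and 3556 to 7524 CPM in untreated cells. Of the 14 myeloid markers 1 was lower (6 with the block, 4 without Romidepsin replicate 3 and 0 without any 1 other library), and their sums were 14150 to 33470 CPM in Romidepsin cells and 40330 to 47070 CPM in untreated cells. The macrophage and myeloid sums were highest of the Romidepsin group in replicate 3, as were all 6 Fc receptor genes. The T cell and endothelial sums given below were highest there too, at 107 and 143 CPM. The B cell sum was highest in Romidepsin replicate 2. The neutrophil, natural killer cell and mast cell and basophil sums were highest in Romidepsin replicate 4.

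Natural killer cell markers, whose cells carry Fcgr3 and Fcer1g, summed to 0.86 to 1.81 CPM in Romidepsin cells and 1.02 to 4.72 CPM in untreated cells, and 5 of the 6 in the table were under 1 CPM in every library. Mast cell and basophil markers, whose cells carry Fcer1g, summed to 30.1 to 85.7 CPM in Romidepsin cells and 72.7 to 105 CPM in untreated cells, with 1 of 8 lower, and 0 without any 1 library other than Romidepsin replicates 1 and 3. T cell markers summed to 17.5 to 107 CPM in Romidepsin cells and 137 to 254 CPM in untreated cells, with 2 of 5 lower, and 0 or 1 without any 1 library. Endothelial markers summed to 99.2 to 143 CPM in Romidepsin cells and 96.4 to 223 CPM in untreated cells, with 1 of 4 lower. Of the 8 natural killer cell markers 6 were in the count table, and of the 10 mast cell and basophil markers 9. No listed marker in the table was at 0 in every library. The part of any of these cell types in the Fc receptor values was not tested.

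Of the 3 tested chains that accompany Fc receptors, 1 was lower and 0 higher (edgeR, unpaired), beside 16.2% of all tested genes lower. There were 2 lower genes without Romidepsin replicate 3, and 0 with housekeeping scaling or without any 1 library other than Romidepsin replicate 3 and untreated replicate 4. Tyrobp, the DAP12 adaptor gene with its own ITAM, had 350, 303, 793 and 601 CPM in Romidepsin cells, against 1128, 1217, 1178 and 728 CPM in untreated cells. Only Romidepsin replicate 3 exceeded an untreated library, replicate 4. The log2 fold change was -1.05 ± 0.34 (SE) with an edgeR adjusted p of 0.0393, which was lost with scaling by library size alone (0.0562), with housekeeping scaling (0.207) and without any 1 library other than Romidepsin replicate 3 and untreated replicate 4 (0.0698 to 0.102). B2m, the partner of Fcgrt, averaged 3902 CPM in Romidepsin cells and 5720 CPM in untreated cells (-0.55, edgeR adjusted p = 0.338, and 0.10 with housekeeping scaling). Hcst, the DAP10 adaptor gene, averaged 9.09 CPM in Romidepsin cells and 15.5 CPM in untreated cells (-0.76, edgeR adjusted p = 0.125, and 0.0358 without Romidepsin replicate 3).

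Of 7 tested receptors that signal through Fcer1g, 2 were lower and 0 higher (edgeR, unpaired), beside 16.2% of all tested genes lower. With the block 4 were lower, beside 20.8% of all tested genes, and without Romidepsin replicate 3, 6, beside 23.4%. With housekeeping scaling, or without any 1 other library, 1 was lower. Gp6, the platelet collagen receptor gene, averaged 0.57 CPM in Romidepsin cells and 2.24 CPM in untreated cells (-1.98 ± 0.46 (SE), edgeR adjusted p = 0.0119, lost with housekeeping scaling at 0.0667). Gp6 also passed the count filter through its level in untreated cells. Clec4d, the C-type lectin gene also called MCL, averaged 155 CPM in Romidepsin cells and 533 CPM in untreated cells (-1.78 ± 0.54, edgeR adjusted p = 0.0304). Without any 1 library other than Romidepsin replicate 3 the Clec4d call was lost (0.0504 to 0.0646), as it was with no count filter (0.0897), and leaving out that library gave a log2 fold change of -2.46. Its neighbour Clec4e, the Mincle gene, averaged 230 CPM in Romidepsin cells and 217 CPM in untreated cells (0.08, edgeR adjusted p = 0.885). Clec4n, the Dectin-2 gene, averaged 96.2 CPM in Romidepsin cells and 265 CPM in untreated cells (-1.46, edgeR adjusted p = 0.0572, and 0.0359 without Romidepsin replicate 3). Without untreated replicate 1, at 518.6 CPM far above its group, the log2 fold change of Clec4n was -0.92 with an edgeR adjusted p of 0.148.

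Downstream of the ITAM, 11 of 27 kinase and adaptor genes were lower and 2 higher (edgeR, unpaired; median log2 fold change -0.80), beside the background of 16.2% lower and 20.3% higher. With housekeeping scaling 7 were lower and 4 higher. Without Romidepsin replicate 1 or 2, 7 were lower. There were 5 lower genes without Romidepsin replicate 4, 4 without untreated replicate 3 and 16 without Romidepsin replicate 3. Syk, the kinase that docks on the phosphorylated Fcer1g chain, averaged 246 CPM in Romidepsin cells and 536 CPM in untreated cells (-1.13 ± 0.40 (SE), edgeR adjusted p = 0.0537). It passed with the block (0.0125) and without Romidepsin replicate 3 (0.00749). Lyn, the Src-family kinase that phosphorylates the ITAM, averaged 171 CPM in Romidepsin cells and 267 CPM in untreated cells (-0.64 ± 0.25, edgeR adjusted p = 0.0725, with the block 0.0383 and without Romidepsin replicate 3 0.00668). Pik3cd, a catalytic subunit of phosphoinositide 3-kinase, averaged 129 CPM in Romidepsin cells and 326 CPM in untreated cells (-1.33 ± 0.20, edgeR adjusted p = 0.00251). Sh3bp2, an adaptor that binds Syk, averaged 50.4 CPM in Romidepsin cells and 213 CPM in untreated cells (-2.08 ± 0.44, edgeR adjusted p = 0.00864), and the adaptor gene Gab2 31.8 CPM in Romidepsin cells and 83.0 CPM in untreated cells (-1.38 ± 0.35, edgeR adjusted p = 0.0163, lost with housekeeping scaling at 0.106). Against this direction, Fyn, another Src-family kinase gene, averaged 45.3 CPM in Romidepsin cells and 11.2 CPM in untreated cells (2.01 ± 0.28, edgeR adjusted p = 0.00195). The other higher gene, Plcg1, which encodes phospholipase C gamma 1 and was named after its values were seen, averaged 68.1 CPM in Romidepsin cells and 17.5 CPM in untreated cells (1.96 ± 0.30, edgeR adjusted p = 0.00240). Exons of Plcg1 overlap those of Gm27206 and Zhx3 on the opposite strand, so its counts are uncertain. Prkcd, the protein kinase C delta gene and an abundant member of the list, averaged 586 CPM in Romidepsin cells and 632 CPM in untreated cells (-0.11, edgeR adjusted p = 0.768).

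Genes of the brakes on Fc receptor signalling were lower as well, 6 of 9 with 0 higher (edgeR, unpaired; median log2 fold change -1.23), beside 16.2% of all tested genes lower and 20.3% higher, and 2 lower with 2 higher under housekeeping scaling. There were 7 lower and 2 higher genes without Romidepsin replicate 3, while without Romidepsin replicate 1 or untreated replicate 3, 3 were lower and 0 higher, and without untreated replicate 4, 4 were lower and 2 higher. Csk, the kinase that holds Src-family kinases inactive, averaged 106 CPM in Romidepsin cells and 287 CPM in untreated cells (-1.44 ± 0.21 (SE), edgeR adjusted p = 0.00220). Ptpn6, the SHP-1 phosphatase gene, averaged 208 CPM in Romidepsin cells and 487 CPM in untreated cells (-1.23 ± 0.31, edgeR adjusted p = 0.0152, lost with housekeeping scaling at 0.0633). Dok1, an inhibitory adaptor, averaged 58.7 CPM in Romidepsin cells and 119.7 CPM in untreated cells (-1.03 ± 0.23, edgeR adjusted p = 0.0104, lost with housekeeping scaling at 0.153). Inpp5d encodes SHIP1, the phosphatase that Fcgr2b recruits, and averaged 91.6 CPM in Romidepsin cells and 277 CPM in untreated cells (-1.60 ± 0.48, edgeR adjusted p = 0.0309). The Inpp5d call was lost without Romidepsin replicate 1, 2 or 4 or untreated replicate 1, 3 or 4 (0.0508 to 0.0707), with housekeeping scaling (0.0604) and with no count filter (0.0832). Ptpn11, the SHP-2 phosphatase gene, averaged 180.3 CPM in Romidepsin cells and 108 CPM in untreated cells (0.74, edgeR adjusted p = 0.0761, 0.0385 without Romidepsin replicate 3 and 0.0179 without untreated replicate 4). Pag1, a membrane adaptor that recruits Csk, averaged 141 CPM in Romidepsin cells and 83.1 CPM in untreated cells (0.76, edgeR adjusted p = 0.0611, 0.0425 without Romidepsin replicate 3 and 0.0110 without untreated replicate 4).

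Of 23 genes for the phagocytic cup, the actin-driven extension of membrane around an antibody-coated particle, 16 were lower and 0 higher (edgeR, unpaired; median log2 fold change -0.80), beside 16.2% of all tested genes lower. Without Romidepsin replicate 1 or 2 or untreated replicate 3, 10 were lower. With the block 17 were lower, and with housekeeping scaling 3 were lower and 2 higher. Was, the Wiskott-Aldrich protein gene that starts actin branching, averaged 43.5 CPM in Romidepsin cells and 126 CPM in untreated cells (-1.54 ± 0.29 (SE), edgeR adjusted p = 0.00556). Actr2, a subunit of the Arp2/3 complex, averaged 282 CPM in Romidepsin cells and 637 CPM in untreated cells (-1.18 ± 0.23, edgeR adjusted p = 0.00633, lost with housekeeping scaling at 0.106). Arf6, a small GTPase of membrane delivery, averaged 82.7 CPM in Romidepsin cells and 144 CPM in untreated cells (-0.80 ± 0.16, edgeR adjusted p = 0.00696, lost with housekeeping scaling at 0.741). Abundant genes of the list that did not pass were Gsn, the actin-severing gelsolin gene, at 729 CPM in Romidepsin cells and 722 CPM in untreated cells (0.01, edgeR adjusted p = 0.969), and Nckap1l, a subunit of the WAVE complex of blood cells. Nckap1l averaged 500.3 CPM in Romidepsin cells and 667 CPM in untreated cells (-0.42, edgeR adjusted p = 0.259). With housekeeping scaling Gsn passed as higher (0.73, edgeR adjusted p = 0.0210) and Nckap1l was at 0.22.

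Of 17 transcription factor and cytokine signalling genes listed as regulators of myeloid Fc receptors, 7 were lower and 0 higher (edgeR, unpaired; median log2 fold change -0.83), beside 16.2% of all tested genes lower. With the block 11 were lower, beside 20.8% of all tested genes, and under housekeeping scaling 2 were lower and 1 higher. There were 12 lower genes without Romidepsin replicate 3, but 3 without Romidepsin replicate 1 or 4 and 4 without untreated replicate 3. Spi1 encodes PU.1, whose core word stands in the 3 stretches printed above. It had 28.2, 20.5, 225 and 90.8 CPM in Romidepsin cells, against 484, 620, 619 and 434 CPM in untreated cells. Every Romidepsin library was below every untreated library, and Romidepsin replicate 3 was the highest of its group. The log2 fold change of Spi1 was -2.56 ± 0.69 (SE) with an edgeR adjusted p of 0.0204 and, with the block, -3.18 with 0.00714. The call was lost without Romidepsin replicate 4 (0.0552) and with no count filter (0.0892), and without Romidepsin replicate 3 the log2 fold change was -3.56. Whether Spi1 has a part in the Fc receptor values was not tested.

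Ifngr2, a chain of the interferon-gamma receptor, averaged 101.5 CPM in Romidepsin cells and 205 CPM in untreated cells (-1.01 ± 0.19 (SE), edgeR adjusted p = 0.00513, lost with housekeeping scaling at 0.188). Stat6, the interleukin-4 signalling factor, averaged 86.4 CPM in Romidepsin cells and 302 CPM in untreated cells (-1.81 ± 0.34, edgeR adjusted p = 0.00546). Jak2, a kinase of the interferon-gamma receptor, averaged 89.5 CPM in Romidepsin cells and 126 CPM in untreated cells (-0.50 ± 0.13, edgeR adjusted p = 0.0190). The Jak2 call was lost without Romidepsin replicate 1 or 4 or untreated replicate 3 (0.0512 to 0.0679), with no count filter (0.0706) and with scaling by library size alone (0.313), and with housekeeping scaling its log2 fold change was 0.22. Cebpb, a factor of myeloid differentiation, averaged 354 CPM in Romidepsin cells and 478 CPM in untreated cells (-0.43, edgeR adjusted p = 0.387), and Irf8, a factor of monocyte development, 305 CPM in Romidepsin cells and 418 CPM in untreated cells (-0.46, edgeR adjusted p = 0.140). With housekeeping scaling the values of Cebpb and Irf8 were 0.20 and 0.29. Lyn, Ptpn6, Arf6, Stat6 and Cebpb share exon sequence with an annotated gene on the opposite strand, so their counts are uncertain.

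**Figure D5:**
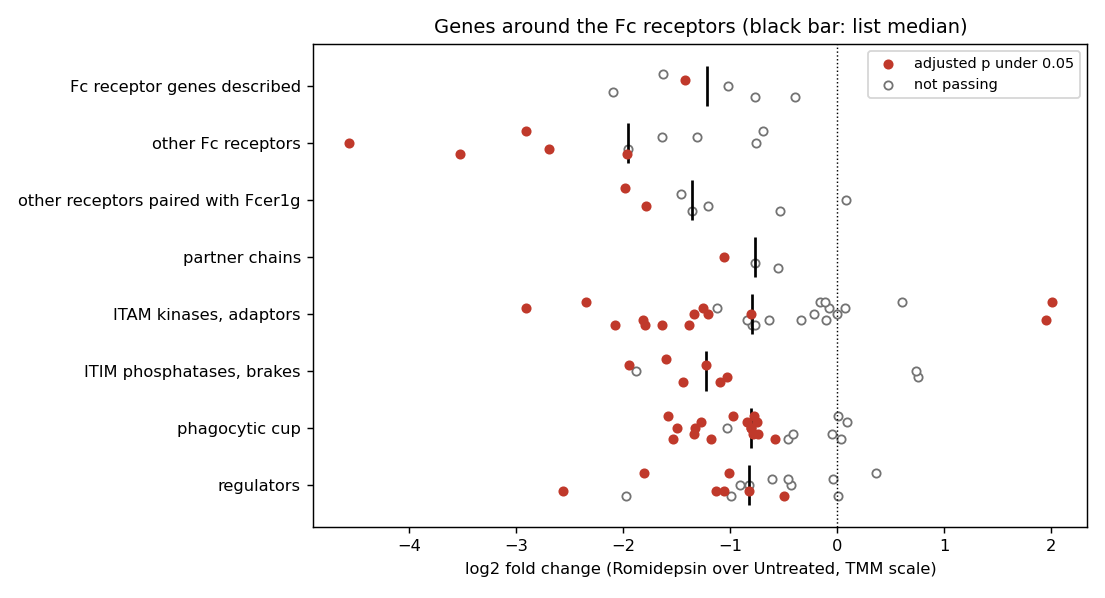
Log2 fold change of Romidepsin over untreated cells for each tested gene of the 7 lists and the 6 Fc receptor genes, 1 point per gene, filled where the edgeR adjusted p was under 0.05, with a black bar at the median of each list. Most points lie left of 0, and the exceptions past the threshold are Fyn and Plcg1 among the ITAM genes.

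The genes whose profile over the 8 libraries was most like that of each Fc receptor gene were found among 8755 genes by the root-mean-square difference of centred log2 CPM, where 0 is an identical profile. For Fcgr1 these were Ms4a6b (0.206) and Ms4a6c (0.271), and the nearest other Fc receptor gene was Fcgr4 (0.677). For Fcgr4 they were Ms4a4b (0.146) and Cd72 (0.188). For Fcgr2b they were Pilra (0.146) and Pilrb2 (0.184), with Fcgr3 at 0.290. For Fcgr3 they were Arhgap4 (0.129) and Rcbtb2 (0.130). For Fcer1g they were Spsb2 (0.095) and Cd53 (0.129), with Fcgr2b the nearest Fc receptor gene at 0.505. For Fcgrt they were Decr2 (0.139) and Ltbp3 (0.146), with Fcer1g at 0.512. The profiles of Fcgr1 and Fcgr4 thus lay closer to each other than either did to Fcer1g, and those of the near copies Fcgr2b and Fcgr3 lay closest of the Fc receptor pairs named here. The 8 libraries share their treatment difference and the position of Romidepsin replicate 3, so likeness of profile is a description with no test.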

How the data were processed

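RNA was measured in 8 libraries, 4 of Romidepsin-treated and 4 of untreated MDSCs, grouped by their sample titles. The deposited values are raw read counts per Ensembl gene. The submitters' processing notes name GRCm38 (mm10), FastQC, DESeq2 and STAR 2.5.2a. Which counter, annotation release and strand setting made the counts is not given in the sources used here. Of 26930 gene identifiers, 26881 matched a symbol and 49 did not. No library copied another.

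The counts were tested with edgeR 4.0.16 in R 4.3.3: filterByExpr (12852 genes), TMM scaling and a two-sided quasi-likelihood F test without pairing, with Benjamini-Hochberg adjustment over all tested genes and a threshold of 0.05. The step was tested on simulated data. Ratios of counts, with 0.5 added to each, were compared by exact permutation. Per-length levels used the merged exons of the GENCODE annotation on GRCm38, and promoter windows came from RefSeq. Total counts of 12996892 to 23176949 make counting error small for all but genes near 1 CPM.

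Same-numbered libraries deviated together from their group means (correlations of 0.525, 0.270, 0.457 and 0.171, against at most 0.0467 between numbers), above the bound of 0.1. Numbers were therefore treated as pairs in the replicate block and in the comparisons by number, while the main test stayed unpaired. The evidence for pairing is in the data alone, as the labels do not explain the numbers. Alternatives were the replicate block, DESeq2 size factors, library size alone, scaling to 20 housekeeping genes, testing with no filter or only genes averaging at least 10 CPM, limma-voom (limma 3.58.1), DESeq2 1.42.0 (Wald test), and leaving out each library or both libraries of number 3.

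The 6 genes and the 7 gene and 8 marker lists were chosen with earlier results of these data known. By the naming rule, each list gave up to 3 called genes with the smallest p, up to 1 in the other direction and up to 2 abundant uncalled genes, and Spi1, Syk, Lyn, Inpp5d, Ptpn6, Tyrobp and B2m were always taken, with 1 more gene that is not reported here. The text names a part of these. H1f0, Hist1h1c and Plcg1, named outside the rule, are marked as chosen after their values were seen. The markers Lyz2, Itgam and Ly6g were also named outside this rule. Protein sequences were not used here.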

Additional observations from a re-analysis of the deposited data

Results flagged for a closer look

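Among 90 groups of 4 libraries checked gene by gene, 2 held a library far from the others, where chance gives about 1 in 20. Clec4n, the Dectin-2 gene, was at 518.6 CPM in untreated replicate 1, while the other untreated libraries lay between 152.7 and 201.2 CPM. Gp6 was at 4.158 CPM in untreated replicate 4, while the other untreated libraries lay between 1.321 and 1.759 CPM. None of the 6 Fc receptor genes had such a library by this measure.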

How the results depend on the processing

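Of 169 recomputed values for the Fc receptor genes, the count ratios and the counts of all genes, 142 were unchanged. For fold changes and ratios this means the same direction and side of the threshold, and for counts of all genes a similar size. Ratios recomputed with libraries left out or within pairs could not pass with so few libraries, so their side of the threshold was fixed in advance. Housekeeping scaling moved the median log2 fold change of all genes to 0.73, and library size alone to 0.31.

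With the replicate block, Fcgr1 (-3.21) and Fcgr4 (-2.16) passed the threshold that they had missed, and the block changed no other call among the 6 genes, although it also brought Fcrls, Trim21, Lyn and Syk past it. Without both libraries of number 3, Fcgr1 (-3.29), Fcgr2b (-1.72) and Fcgr4 (-2.33) passed, as did Fcgr4 in the DESeq2 Wald test (-1.67). Fcgr3 no longer passed with housekeeping scaling (-0.82) or with no count filter (-1.44), and Fcgrt turned to 0.32 with housekeeping scaling. Leaving out 1 library gave log2 fold changes of -3.67 to -1.70 for Fcgr1, -1.66 to -0.71 for Fcgr2b, -1.97 to -1.16 for Fcgr3, -2.62 to -1.27 for Fcgr4 and -1.16 to -0.57 for Fcer1g. Among these fits Fcgr1, Fcgr2b, Fcgr4 and Fcer1g passed only without Romidepsin replicate 3. The count of lower genes was 636 with housekeeping scaling, 1368 with library size alone and 1187 to 3077 without 1 library, against 2080 as reported. The count of higher genes was 6007 with housekeeping scaling and 1793 to 3270 without 1 library, against 2610.

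Of 36 other named genes in 17 alternatives, 582 of 608 values kept their direction. With housekeeping scaling B2m (0.10), Cebpb (0.20), Irf8 (0.29), Jak2 (0.22), Lyn (0.02), Nckap1l (0.22) and Prkcd (0.54) turned positive, Prkcd also with library size alone (0.17); leaving out 1 library gave -0.31 to 0.04 for Prkcd. Clec4e was at -0.11 with the block, -0.09 with limma-voom, -0.30 without both libraries of number 3 and -0.31 to 0.32 without 1 library. Gsn was at -0.02 with DESeq2 size factors and the DESeq2 Wald test, -0.01 with no count filter and -0.07 without both libraries of number 3, and leaving out 1 library gave -0.11 to 0.18. Of 21 called genes, 21 kept their call with the block and 11 with housekeeping scaling. The causes were not tested. Genes near 1 CPM, such as Gp6, Fcrl5 and Fcrla, are limited by depth.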
